A study of Mus musculus with 45 samples.

Results

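The genes described here mark the choroid plexus, the epithelium that makes cerebrospinal fluid, and the ependyma, the ciliated layer that lines the ventricles. They were taken by symbol: Ttr, Kl, Folr1, Kcnj13, Clic6, Otx2, Aqp1 and Enpp2 for the choroid plexus and Foxj1 for the ependyma. Of the 9 genes, 8 had a named probe set among the 17097 genes of the table, and all 8 passed the filter that kept 11809 genes for testing; Enpp2 is not analysed here. Where a gene had several probe sets, the one with the largest average signal stands for it. All values are log2 signals, so a difference of 1 is a doubling.

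RNA came from the brains of mice of the CD-1 nude strain with glioblastoma, and every genotype label carried p53null. The series' design text describes retroviral constructs that carried the wild-type receptor or its mutants into cultured astrocytes without p53. The 45 arrays fell into 8 genotype groups: Pdgfra D842V, C450 ins and E10 del with 5 arrays each, Pdgfra E10 del.v2 and V544ins with 9 each, Pdgfra E7 del with 3, EGFRvIII with 8 and Pdgfra WT with 1. The labels gave no age, and they did not say whether replicates came from separate animals, so each p-value reflects array-to-array spread, which may be technical. Title numbers lay in a lower range, 1 to 30 (21 arrays), and an upper range, 41 to 64 (24 arrays), which the labels do not call batches. The lower range held every array of E10 del, C450 ins and D842V, and the upper range every array of Pdgfra WT, E7 del and EGFRvIII, whereas V544ins and E10 del.v2 were split, 3 arrays below and 6 above. In bulk RNA such as this, fewer cells of a type and less RNA per cell cannot be told apart.

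Choroid plexus epithelium secretes transthyretin, the product of Ttr, which carries thyroid hormone and retinol-binding protein in the cerebrospinal fluid. It also makes klotho (Kl), a co-receptor for a fibroblast growth factor hormone, and folate receptor alpha (Folr1), which moves folate from blood to cerebrospinal fluid. Kcnj13 encodes the inward rectifier potassium channel Kir7.1, Clic6 a member of the chloride intracellular channel family and Aqp1 a water channel of the epithelium that is also found on endothelial cells outside the brain. Otx2 is a homeodomain transcription factor needed for the choroid plexus to form. Foxj1 is the forkhead factor that drives motile ciliogenesis, and in the brain it marks ependymal cells.

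Promoter sequences of 4 of the genes, Kl, Kcnj13, Otx2 and Aqp1, were at hand from RefSeq (GRCm38.p6), as windows of 300 bases that run from 250 before to 50 after a transcript start. No window was found for Folr1, Clic6 or Foxj1, and Ttr and Enpp2 were not looked up. Windows of Kl and Otx2 are shown because Kl is a choroid plexus gene that moved with the others across arrays, and because Otx2 is the transcription factor of the set. Each window was searched on both strands for TAATCC, the core of an OTX site, for GTTGCC, the core of sites of RFX factors, which act on ciliary genes, and for GTAAACA, a forkhead core; these motifs do not overlap each other. Capitals mark matches. The first is Kl, chr5:150952357-150952656, plus strand, and the others are windows 2 and 3 of 4 windows of Otx2, chr14:48667459-48667758 and chr14:48665060-48665359, both minus strand.
Kl: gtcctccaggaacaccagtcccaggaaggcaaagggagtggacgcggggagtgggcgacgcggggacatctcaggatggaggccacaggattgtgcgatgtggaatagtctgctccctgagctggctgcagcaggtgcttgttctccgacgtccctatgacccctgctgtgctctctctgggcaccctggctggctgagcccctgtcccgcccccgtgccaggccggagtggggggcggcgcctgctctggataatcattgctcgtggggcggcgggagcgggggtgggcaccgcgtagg
Otx2 window 2: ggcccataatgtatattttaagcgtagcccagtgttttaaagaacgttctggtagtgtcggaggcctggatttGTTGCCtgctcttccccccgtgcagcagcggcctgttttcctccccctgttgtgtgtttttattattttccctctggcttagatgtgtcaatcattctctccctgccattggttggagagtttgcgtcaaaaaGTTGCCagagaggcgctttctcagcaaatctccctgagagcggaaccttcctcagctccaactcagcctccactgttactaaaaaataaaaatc
Otx2 window 3: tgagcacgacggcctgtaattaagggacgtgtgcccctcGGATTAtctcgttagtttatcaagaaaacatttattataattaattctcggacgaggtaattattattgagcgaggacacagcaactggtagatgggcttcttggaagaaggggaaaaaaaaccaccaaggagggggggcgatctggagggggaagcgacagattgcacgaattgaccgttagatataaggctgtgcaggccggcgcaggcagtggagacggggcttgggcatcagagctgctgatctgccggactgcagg
The Kl window held none of the 3 motifs. Otx2 window 2 held GTTGCC at positions 74 and 207, counted from its 5′ end, and Otx2 window 1 held it at position 210, which is the same site as position 74 because both windows overlap. Otx2 window 3 held the OTX core on the opposite strand, read as GGATTA from position 40, and window 4 held no match. Among the other genes, the Aqp1 window held 1 GTTGCC and the Kcnj13 window no match. Of 32851 promoter windows of the same length, 7.06% held TAATCC, 12.5% held GTTGCC and 3.65% held GTAAACA. The matches are descriptions of letters, not of binding.

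The choroid plexus genes were high together in a small number of arrays. In most of the others Kl, Folr1 and Kcnj13 lay below the table median of 4.79, while Ttr was above it in 40 of 45 arrays. Ttr, Kl and Folr1 were all more than 1 above their own medians in 7 of 45 arrays: D842V replicates 1, 2, 4 and 5, C450 ins replicate 3, E10 del replicate 2 and E10 del.v2 replicate 4. Of the 7 arrays, 6 lay in the lower title range, and none was EGFRvIII. Kcnj13, Clic6 and Otx2 were also over that mark in each of the 7 arrays, and Aqp1 in 5 of them. Of all 7 choroid plexus genes, each of these arrays had 6 or 7 over the mark, and no other array more than 3. Ttr, Kl and Folr1 picked the arrays, so those 3 count there by definition. With a mark of 2, Ttr, Kl and Folr1 were all over it in 6 arrays, D842V replicate 4 dropping out.

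**Figure D1:**
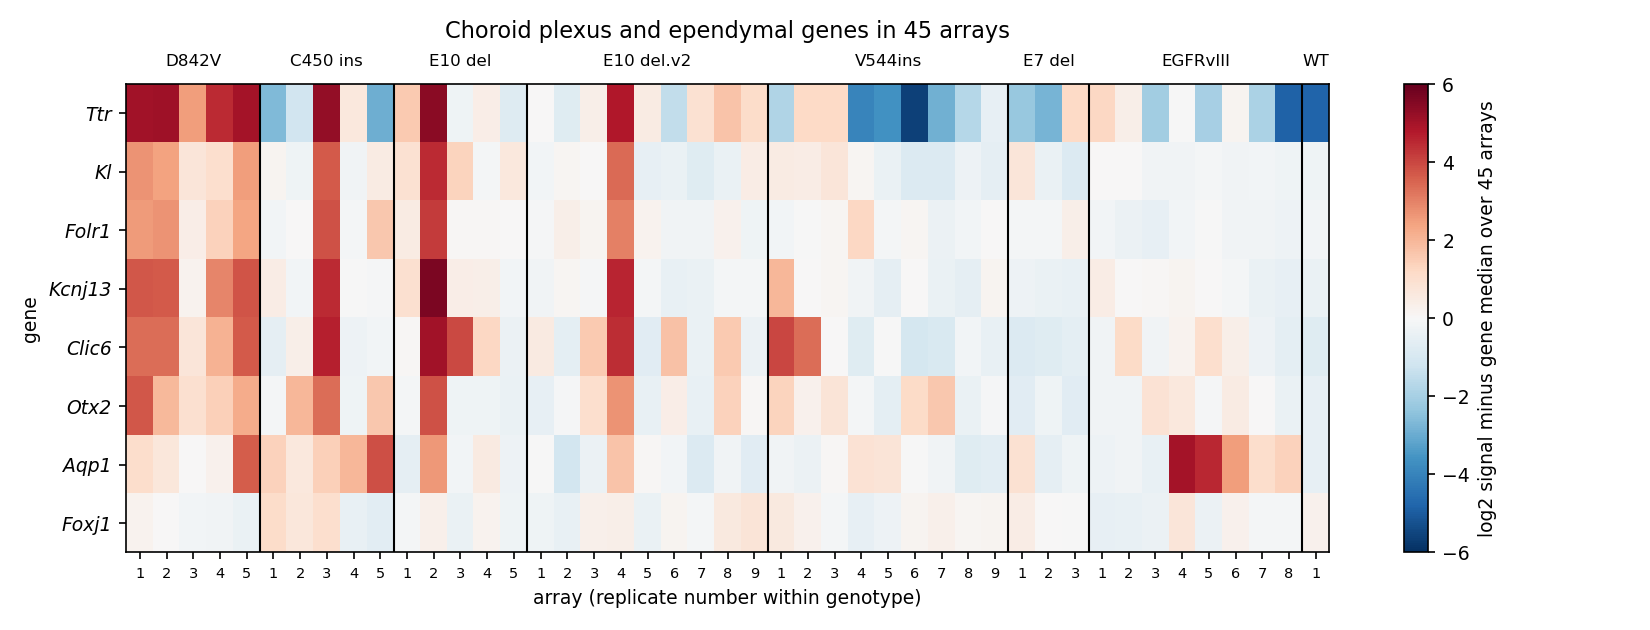
Log2 signal of each of the 8 genes (vertical axis) in each of the 45 arrays (horizontal axis, replicate number within genotype), minus the gene's median over the 45 arrays. Red columns from Ttr down to Otx2 mark the 7 arrays in which choroid plexus genes were high together; the Foxj1 line stays pale throughout.

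Ttr varied most. Its standard deviation over 45 arrays was 2.88, rank 1 among 11809 genes, and its signal ran from 2.44 in V544ins replicate 6 to 13.42 in E10 del replicate 2 around a median of 8.02. In D842V the signals were 13.08, 13.09, 10.52, 12.49 and 13.01 in replicates 1 to 5, all above the median. C450 ins gave 5.37, 6.89, 13.28, 8.66 and 5.07, so 1 array stood far above the other 4. E10 del likewise had 1 high array, with 9.61, 13.42, 7.73, 8.41 and 7.23. The 3 E7 del arrays read 5.75, 5.21 and 9.23.

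In the larger groups Ttr was mostly lower. E10 del.v2 had a lowest value of 6.54, a median of 8.50 and a highest of 12.82. EGFRvIII ran from 3.15 through a median of 7.05 to 9.26. V544ins ran from 2.44 through 6.23 to 9.23, and the single Pdgfra WT array read 3.20. The group means ± SD, from high to low, were 12.44 ± 1.10 in D842V (n = 5), 9.28 ± 2.48 in E10 del (n = 5), 8.82 ± 1.78 in E10 del.v2 (n = 9), 7.85 ± 3.35 in C450 ins (n = 5), 6.88 ± 1.96 in EGFRvIII (n = 8), 6.73 ± 2.18 in E7 del (n = 3) and 6.06 ± 2.32 in V544ins (n = 9). Each neighbouring pair below D842V differed by less than its SDs. The 5 D842V arrays overlapped the highest arrays of C450 ins, E10 del and E10 del.v2, and lay above every array of EGFRvIII, E7 del, V544ins and Pdgfra WT.

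Ttr was over its mark more often than Kl and Folr1. In 15 arrays Ttr was more than 1 above its median, and in 8 of the 15 Kl and Folr1 were not both over theirs. D842V replicate 3 had the highest Ttr of the 8: it read 10.52 there, while Kl read 4.03, Folr1 3.58 and Kcnj13 3.55. The second Ttr probe set followed the one used (r = 0.99 over 45 arrays).

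**Figure D2:**
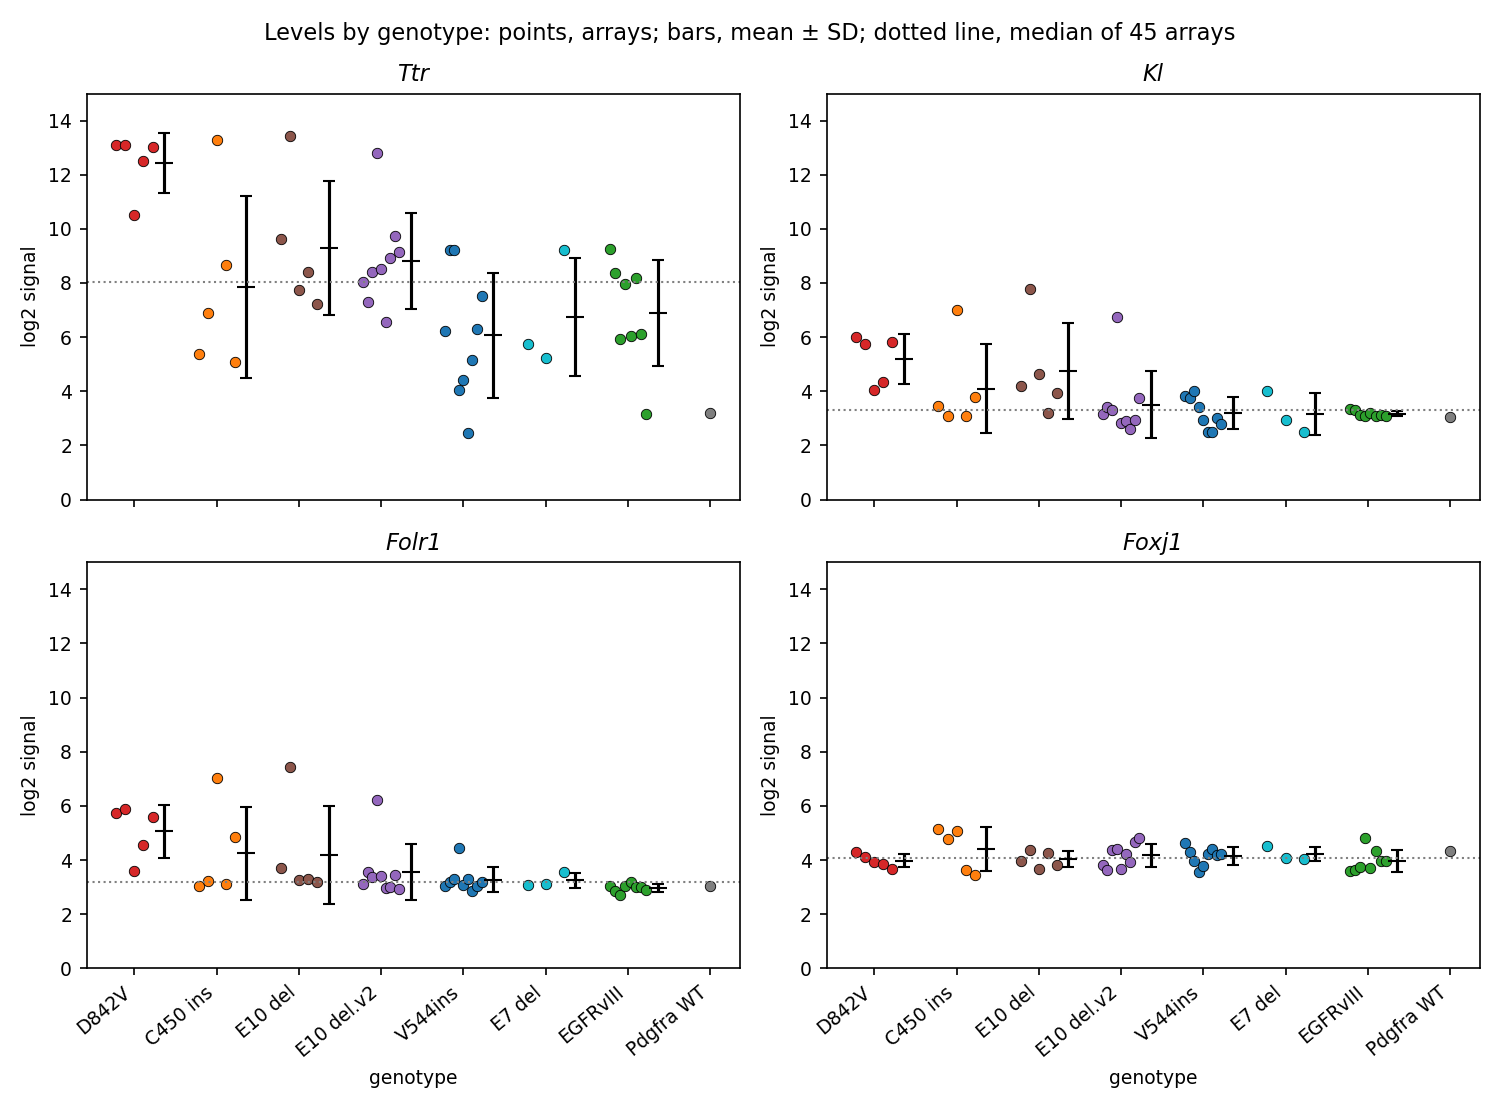
Log2 signal (vertical axes, from 0 to 15) of Ttr, Kl, Folr1 and Foxj1 by genotype (horizontal axes); points are arrays, black bars the mean ± SD of groups with more than 1 array and dotted lines the median of 45 arrays. D842V and single arrays of C450 ins, E10 del and E10 del.v2 stand high for Ttr, Kl and Folr1, while Foxj1 lies between 3.44 and 5.16 in every group.

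Kl and Folr1 separated the arrays more sharply. Kl ran from 2.49 to 7.78 with a median of 3.31, and only 8 arrays were more than 1 above that. In D842V it read 5.99, 5.73, 4.03, 4.34 and 5.82, in C450 ins 3.47, 3.07, 6.99, 3.09 and 3.80, and in E10 del 4.21, 7.78, 4.65, 3.19 and 3.93. High arrays therefore made up most of D842V and 1 of 5 in C450 ins, whereas E10 del had a clear high array, replicate 2, and a smaller value in replicate 3. In E10 del.v2 Kl ran from 2.60 through a median of 3.15 to 6.73, and in V544ins from 2.49 through 3.01 to 4.02. EGFRvIII was flat, from 3.08 through 3.13 to 3.35. E7 del read 4.02, 2.93 and 2.51, and Pdgfra WT 3.06. A second Kl probe set stayed between 2.58 and 3.33, never above the table median, and hardly followed the first (r = 0.29), so the Kl values rest on 1 of 2 probe sets.

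Folr1 ran from 2.72 to 7.42 with a median of 3.20. Its D842V values were 5.74, 5.89, 3.58, 4.56 and 5.59, its C450 ins values 3.05, 3.22, 7.03, 3.10 and 4.85, and its E10 del values 3.71, 7.42, 3.27, 3.29 and 3.20. The arrays high for Kl were high again except E10 del replicate 3, and C450 ins replicate 5 was added. E10 del.v2 ran from 2.93 through 3.37 to 6.22, and V544ins from 2.87 through 3.18 to 4.46, the latter in replicate 4. EGFRvIII again lay in a narrow band, from 2.72 through 3.02 to 3.19. C450 ins replicate 5 and V544ins replicate 4 were also the arrays with the highest mean of 4 pituitary hormone genes (Gh, Prl, Pomc and Cga), 12.44 and 12.28 against a median of 3.59 over 45 arrays; the part of pituitary tissue in their Folr1 signal was not tested.

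The potassium channel gene Kcnj13 followed Kl and Folr1 closely. It read 7.08, 7.03, 3.55, 6.26 and 7.12 in D842V, 7.84 in C450 ins replicate 3, 9.01 in E10 del replicate 2 and 7.90 in E10 del.v2 replicate 4, against a median of 3.35. Outside those arrays and D842V replicate 3 the highest signal was 5.34, in V544ins replicate 1. In EGFRvIII it ran from 2.85 through 3.35 to 3.80. Pearson's r over 45 arrays was 0.93 for Kl and Kcnj13, 0.90 for Kl and Folr1, 0.91 for Folr1 and Kcnj13 and 0.73 for Ttr and Kl. These coefficients rest on few high arrays: Spearman's rho for the same pairs was 0.74, 0.55, 0.56 and 0.53. For Ttr and Kl, r was 0.80 among the 21 arrays of the lower title range, 0.49 among the 24 of the upper and 0.65 after group means were removed.

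Otx2, the transcription factor, was high in the same arrays and moderately high in several others. It read 6.84, 5.04, 4.07, 4.56 and 5.32 in D842V, 6.44 in C450 ins replicate 3, 6.93 in E10 del replicate 2 and 5.79 in E10 del.v2 replicate 4, with a median of 3.11 over all arrays. Otx2 was more than 1 above its median in 13 arrays. Among these were C450 ins replicate 2 at 5.11 and replicate 5 at 4.74, V544ins replicate 7 at 4.72 and E10 del.v2 replicate 8 at 4.47, in which Kl stayed at or below 3.80.

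Clic6 was high with the core genes and also in arrays without them. It ran from 2.78 to 8.90 with a median of 3.84 and exceeded it by more than 1 in 15 arrays, 12 of them in the lower title range. It was high in the 7 arrays above, from 5.94 in D842V replicate 4 to 8.90 in E10 del replicate 2. It was also high with low Folr1 in V544ins replicate 1 (7.85 against a Folr1 signal of 3.04), V544ins replicate 2 (7.20 against 3.18) and E10 del replicate 3 (7.79 against 3.27). E10 del replicate 3 had a pituitary gene mean of 9.33, and V544ins replicates 1 and 2 had 3.55 and 3.60, at the median; the part of pituitary tissue was not tested. The second Clic6 probe set followed the first (r = 0.95).

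The highest Aqp1 signals were in EGFRvIII arrays with low Kl and Folr1. It read 8.73, 8.27 and 6.29 in EGFRvIII replicates 4, 5 and 6, where Kl was 3.10, 3.18 and 3.10. C450 ins replicate 5 gave 7.61 and D842V replicate 5 gave 7.38, and only the latter carried Ttr, Kl and Folr1. E10 del replicate 2, which carried them as well, gave 6.36, and 5 of the 7 arrays with all of Ttr, Kl and Folr1 had Aqp1 more than 1 above its median of 3.76. Over EGFRvIII as a whole Aqp1 ran from 3.30 through a median of 4.99 to 8.73. In those 3 EGFRvIII arrays the mean of 11 endothelial genes was 7.34, 7.04 and 6.52, against a median of 6.37 over 45 arrays, and the mean of 12 microglia and macrophage genes was 9.48, 9.38 and 8.68, against 8.20. The mean of 12 meningeal and fibroblast genes was 6.32, 6.21 and 5.46 in the same arrays, 7.26 in C450 ins replicate 5 and 7.39 in D842V replicate 5, against a median of 5.25. Some arrays with low Aqp1 had high means too. The meningeal mean was 6.54 in E10 del replicate 1 and 6.51 in V544ins replicate 3, where Aqp1 read 3.24 and 3.81. The microglia mean was 9.26 in Pdgfra WT and 9.15 in E10 del.v2 replicate 8, where Aqp1 read 3.29 and 3.57. The part of these cell types in the Aqp1 signal was not tested. Across 45 arrays Aqp1 and Ttr gave r = 0.12.

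Foxj1 hardly moved. It ran from 3.44 to 5.16 with a median of 4.08 and a standard deviation of 0.42, a spread larger than that of 43.1% of genes, and it was above the table median in 4 of 45 arrays. C450 ins replicate 1, at 5.16, was the only array more than 1 above its median, and that array read 5.37 for Ttr, 3.47 for Kl and 3.05 for Folr1. C450 ins gave 5.16, 4.76, 5.07, 3.63 and 3.44, the widest span of any genotype. D842V gave 4.31, 4.12, 3.91, 3.87 and 3.67, and E10 del 3.97, 4.38, 3.68, 4.27 and 3.83. Group means ± SD lay between 3.96 ± 0.42 in EGFRvIII (n = 8) and 4.41 ± 0.82 in C450 ins (n = 5), and no 2 groups with replicates differed beyond their SDs. Pearson's r of Foxj1 with the other 7 genes ran from 0.03 for Aqp1 to 0.34 for Otx2 over 45 arrays.

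Because Foxj1 lay so near the floor, genes of motile cilia and ependyma were read beside it: of 46 listed, 39 were measured and 20 passed the filter. The arrays with the most of the 20 more than 1 above their medians were E10 del replicate 2 with 14, V544ins replicate 1 with 11 and E10 del replicate 1 with 10, followed by C450 ins replicate 3, D842V replicate 1 and E10 del.v2 replicate 4 with 9 each. Of these 6 arrays, 4 carried Ttr, Kl and Folr1. V544ins replicate 1 and E10 del replicate 1 did not: their Kl was 3.82 and 4.21 and their Folr1 3.04 and 3.71. Conversely D842V replicates 2 and 5 carried the choroid plexus genes with 0 of 20 cilia genes over the mark, and D842V replicate 4 with 1.

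Single cilia genes showed the same arrays. Rsph1, which encodes a radial spoke head protein, read 7.27 in E10 del replicate 2, 6.92 in E10 del replicate 1, 6.66 in V544ins replicate 1, 6.49 in C450 ins replicate 3 and 6.13 in D842V replicate 1, against 5.10 in D842V replicate 2, 5.38 in D842V replicate 5 and a median of 4.93. Ak7, an adenylate kinase of motile cilia, was highest in V544ins replicate 1 at 6.31 and read 3.63 and 3.69 in D842V replicates 2 and 5. Cilia gene levels therefore differed among arrays that shared high Ttr, Kl and Folr1. The mean of the 20 genes was 6.07 in E10 del replicate 2 and 4.63 in D842V replicate 5, with a median of 4.73.

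**Figure D3:**
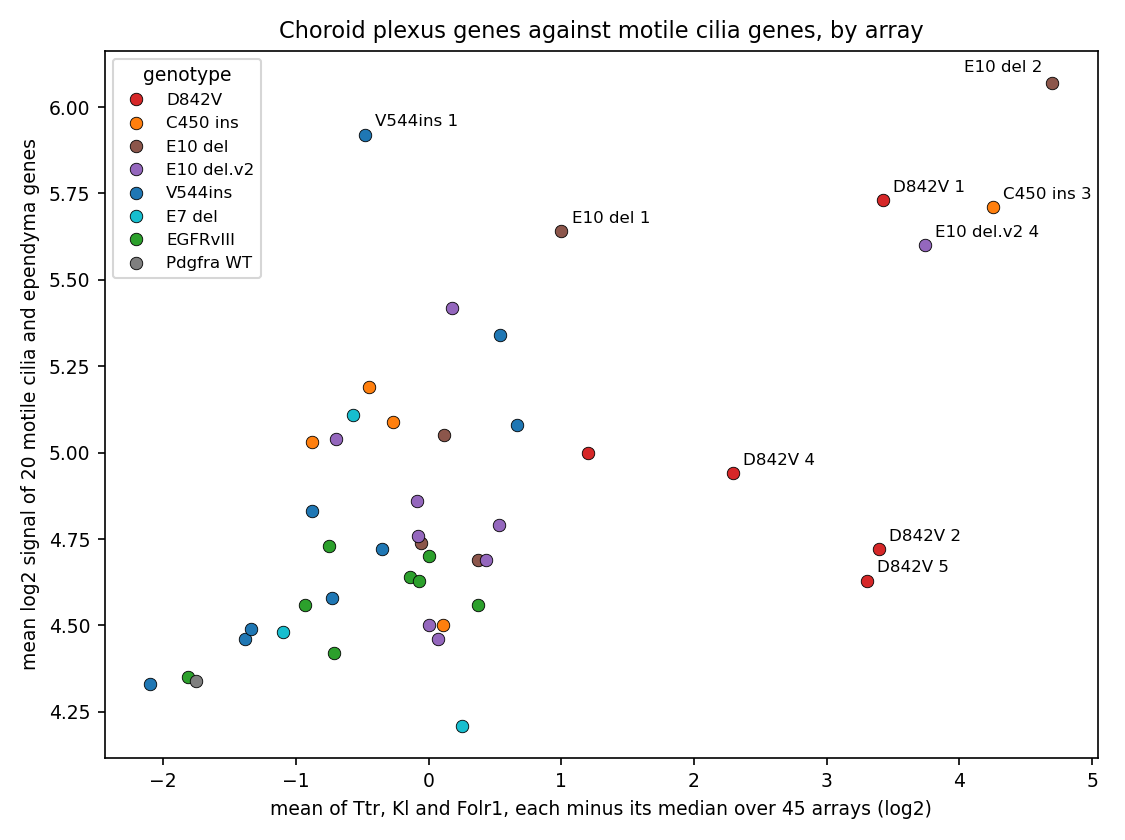
Each point is 1 of 45 arrays, coloured by genotype; the horizontal axis is the mean of Ttr, Kl and Folr1, each minus its median over 45 arrays (log2), and the vertical axis the mean log2 signal of 20 motile cilia and ependyma genes. Named arrays carried all of Ttr, Kl and Folr1 or had at least 9 cilia genes over the mark; D842V replicates 2, 4 and 5 lie to the right but low, and V544ins replicate 1 and E10 del replicate 1 high but to the left.

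A wider list of 40 choroid plexus genes, of which 38 were measured and 28 passed the filter, gave a graded picture of the 7 arrays. The number more than 1 above their medians was 21 for E10 del replicate 2, 19 for C450 ins replicate 3 and 13 for E10 del.v2 replicate 4, and for D842V replicates 1, 2, 4 and 5 it was 12, 7, 4 and 15. E10 del replicate 2 held the highest signal of 12 of the 28. EGFRvIII replicates 4, 5 and 6 also had 7, 8 and 10, with Kl and Folr1 at the floor. Some of the 28 genes passed the filter only through the 7 arrays: Slc4a5, Trpm3 and Kcne2 exceeded the table median in none of the other arrays. Measured genes that failed the filter were not counted, so these numbers lean towards the 7 arrays.

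The genes whose signal most resembled the mean of Ttr, Kl and Folr1 included several channels and transporters. The 10 highest Pearson coefficients over 45 arrays, among 11806 other genes, belonged to Kcnj13 (0.91), Kcne2 (0.86), Prr32 (0.86), Slc4a5 (0.84), Trpm3 (0.83), Calml4 (0.79), Clic6 (0.78), F5 (0.78), Ecrg4 (0.74) and Otx2 (0.73). Kcne2 encodes a potassium channel subunit, Slc4a5 a sodium bicarbonate cotransporter, Trpm3 a cation channel and F5 coagulation factor V. Of the 10, 3 are genes of the set and 5 belong to the wider choroid plexus list. Kcne2, Prr32, Slc4a5, Trpm3 and F5 exceeded the table median only in arrays that carried Ttr, Kl and Folr1, so their coefficients rest on few arrays. Kcne2, with a median of 2.72, read 5.86 in C450 ins replicate 3, 6.64 in E10 del.v2 replicate 4 and 6.96 in E10 del replicate 2. In D842V replicates 1, 2, 4 and 5 it read 5.48, 4.07, 3.75 and 4.95. Aqp1 ranked 2236 (r = 0.24) and Foxj1 3312 (r = 0.14) by the same measure.

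The genes most like Foxj1 were others. They were Tst (0.62), Fxyd1 (0.59), Creg1 (0.59), Hspb8, Tunar, Mid1ip1, Gstm1, Igfbp2, Atp1b2 and Pbxip1 (0.53), none of them in the cilia list and 1, Igfbp2, in the wider choroid plexus list. The 20 cilia genes had a median r with Foxj1 of 0.26, against 0.40 with the mean of Ttr, Kl and Folr1. All arrays share one platform and normalisation, and these coefficients are descriptions.

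Markers of other tissue in the arrays with choroid plexus genes were uneven. Pmch, which encodes a hypothalamic neuropeptide, read 11.16 in C450 ins replicate 3, 10.57, 8.57 and 9.73 in D842V replicates 1, 2 and 4 and 11.15 in E10 del.v2 replicate 4, against a median of 3.38 over 45 arrays. It was 4.81 in D842V replicate 5 and 3.06 in E10 del replicate 2, which carried choroid plexus genes as well, and it was 10.44 in D842V replicate 3 and 11.76 in E10 del.v2 replicate 3, which did not carry Kl and Folr1. The mean of 12 hypothalamic neuropeptide genes, Pmch among them, had a median of 5.07 over 45 arrays. It was 7.61, 5.24, 6.19 and 4.13 in D842V replicates 1, 2, 4 and 5. In C450 ins replicate 3 it was 7.18, in E10 del replicate 2 6.22 and in E10 del.v2 replicate 4 8.21. The mean of 13 neuronal genes was 5.91 in D842V replicate 5 and between 9.14 and 10.81 in the other 6 arrays, with a range of 4.88 to 11.42 over all 45. E10 del replicate 2 had a pituitary gene mean of 6.81, and C450 ins replicate 3 had 6.74 (median of 45 arrays 3.59). D842V replicates 1, 2, 4 and 5 had 4.35, 3.58, 3.83 and 3.57, and E10 del.v2 replicate 4 had 3.83. Meningeal means (median 5.25) were 7.22, 5.45 and 5.36 in E10 del replicate 2, C450 ins replicate 3 and E10 del.v2 replicate 4. For the same D842V arrays they were 6.66, 4.70, 5.48 and 7.39. The parts of pituitary, meninges and dissected brain region in the choroid plexus signal were not tested. The retinal pigment epithelium shares Kcnj13 and Otx2 with the choroid plexus, and 9 of its genes were read. In the 7 arrays with Ttr, Kl and Folr1, Rpe65 did not exceed 3.30, Tyr 2.98, Rgr 2.93 and Tyrp1 3.32. Over all 45 arrays their highest values were 4.72, 3.30, 3.16 and 3.53. Mitf lay between 7.30 and 7.95 in the 7 arrays and between 6.76 and 9.07 in all, and Dct (highest 8.86), Pmel (6.60) and Best1 (5.06) peaked outside the 7 arrays. Lrat peaked at 5.11 in D842V replicate 1, against a median of 3.44. The part of this tissue was not tested. The 3′ minus 5′ signal of Actb, a measure of RNA integrity, was 0.93 in E10 del replicate 2. Of all arrays only E10 del.v2 replicate 2 was higher, at 1.19, and the lowest value was 0.43. It was 0.67 in C450 ins replicate 3, 0.76 in E10 del.v2 replicate 4 and 0.44 to 0.74 in D842V.

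The first comparison asked whether D842V, a substitution in the kinase domain, differed from the other 5 mutants. Ttr was higher in D842V by 4.69 ± 1.04 (SE, 25.8-fold; means 12.44 and 7.75), with an adjusted p of 0.0232 by limma with Benjamini-Hochberg adjustment over 11809 genes. It was the only one of 8 genes of the set called in this comparison, in which 0.584% of all genes were called, 0.313% higher and 0.271% lower. That difference was already known when the genes were chosen. Of 12 hypothalamic neuropeptide genes 1, Pmch, was called higher in D842V (4.89 ± 1.10, limma adjusted p = 0.0255), with a list median of 0.47. Of 17 genes of myelinating oligodendrocytes 1, Trf, was (1.40 ± 0.32, limma adjusted p = 0.0301), with a list median of 0.88. The median over all genes was -0.01. In these lists 3 of the 12 and 9 of the 17 had an unadjusted limma p under 0.05, against 11.7% of all genes. Of 13 neuronal and 10 astrocyte genes 0 were called by limma and 0 had an unadjusted p under 0.05, with list medians of 0.4 and 0.03. With the mean of neuronal and oligodendrocyte genes as a covariate the Ttr difference was 3.97 ± 1.06 (limma adjusted p = 0.0302). The 2 lists did not always move together: in V544ins replicates 4 and 5 the oligodendrocyte mean was 10.05 and 9.96 and the neuronal mean 5.77 and 4.88. The source of the oligodendrocyte signal and the part of hypothalamic tissue were not tested. In an exact permutation test of the 5 D842V arrays against the 31 of the other mutants, two-sided, Ttr gave p = 0.000188. All D842V arrays lie in the lower title range. With title range as a block the Ttr difference was 4.34 ± 1.16 (limma adjusted p = 0.0633), and within titles 1 to 30 it was 4.19 ± 1.10 (limma adjusted p = 0.0427). Leaving out any of the 5 D842V arrays ended the call, with limma adjusted p from 0.0509 to 0.120 and differences from 4.53 to 5.17.

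The other choroid plexus genes were higher in D842V without passing the threshold. The differences ± SE were 2.38 ± 0.67 for Kcnj13, 1.95 ± 0.78 for Clic6, 1.61 ± 0.51 for Otx2, 1.44 ± 0.51 for Kl, 1.37 ± 0.49 for Folr1 and 0.70 ± 0.61 for Aqp1. The corresponding limma adjusted p-values were 0.0797, 0.280, 0.127, 0.202, 0.202 and 0.755. Foxj1 differed by -0.22 ± 0.21 (limma adjusted p = 0.783). Weighting arrays by their fit made all of the choroid plexus differences smaller: 2.93 for Ttr, 1.15 for Kcnj13, 0.74 for Clic6, 0.50 for Otx2, 0.47 for Kl, 0.31 for Folr1 and 0.03 for Aqp1, with Ttr still called (limma adjusted p = 0.00511). Under those weights Foxj1 was called lower in D842V (-0.37 ± 0.11, limma adjusted p = 0.00816). Limma then called 4672 of all 11809 genes, against 69 without weights, so these 2 calls do not set Ttr and Foxj1 apart. The Clic6 difference was 1.11 with title range as a block, and Aqp1 was 0.08 without D842V replicate 5 and 1.22 with the covariate. Kcnj13 passed the threshold when E10 del replicate 2 was left out (2.59, limma adjusted p = 0.0233), when E10 del.v2 replicate 4 was (2.48, limma adjusted p = 0.0365) and when C450 ins replicate 3 was (2.56, limma adjusted p = 0.0394). Otx2 passed without E10 del replicate 2 (1.77, limma adjusted p = 0.0438). Those are the 3 arrays of other genotypes that carried all of Ttr, Kl and Folr1. The exact permutation test, unadjusted and two-sided, gave p = 0.0054 for Kcnj13, 0.0105 for Otx2, 0.0180 for Folr1, 0.0184 for Kl, 0.0320 for Clic6, 0.140 for Aqp1 and 0.320 for Foxj1, over 8 genes tested. Kl exceeded the table median in 6 arrays, all of which carried Ttr, Kl and Folr1, D842V replicates 1, 2 and 5 among them. It passed the filter only through arrays in which it was high, so its p-values are descriptions.

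In D842V 0 of the 28 wider choroid plexus genes were called by limma, and 8 had an unadjusted p under 0.05 (11.7% of all genes did), with a median difference of 0.39 against -0.01 over all genes. Some of the 28, Slc4a5, Trpm3 and Kcne2 among them, passed the filter only through the 7 arrays that carried Ttr, Kl and Folr1. Of those arrays 4 were D842V. Trpm3 exceeded the table median in D842V replicate 5 and Kcne2 in D842V replicates 1 and 5. Slc4a5 did so only in C450 ins replicate 3, E10 del replicate 2 and E10 del.v2 replicate 4. The filter may have raised these numbers through genes that were high in D842V. Car14, a carbonic anhydrase, had the smallest limma adjusted p, 0.0797, at 0.90 ± 0.25. Of the 20 cilia genes 0 were called by limma, and 0 had an unadjusted p under 0.05, with a median difference of 0.00.

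**Figure D4:**
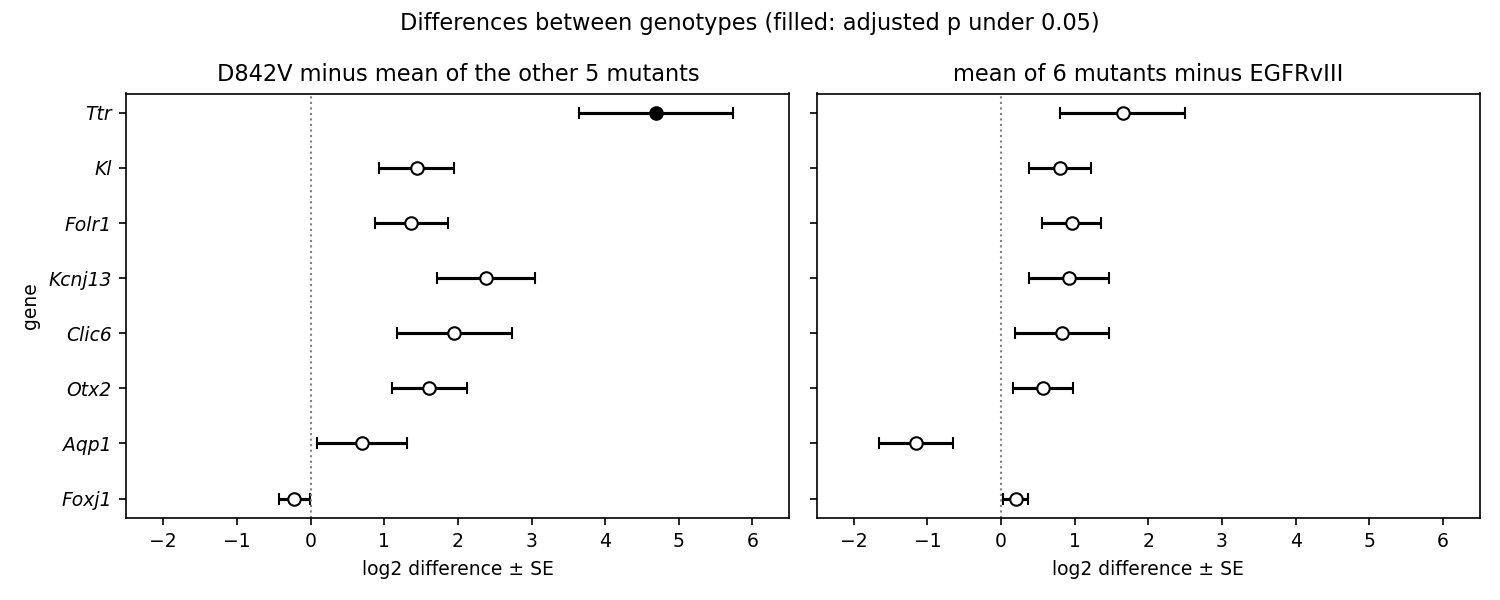
Log2 difference ± SE (horizontal axes) for each of the 8 genes (vertical axis), for D842V minus the mean of the other 5 mutants on the left and the mean of the 6 mutants minus EGFRvIII on the right; filled points have an adjusted p under 0.05. Ttr at 4.69 is the single filled point; Aqp1 lies at 0.70 on the left and -1.15 on the right.

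Across the 6 mutants, limma's moderated F test called Ttr (adjusted p = 0.0407) and none of the other 7 genes, against a background of 0.576% of all genes. The next smallest limma adjusted p-values were 0.159 for Kcnj13 and 0.168 for Kl, and Foxj1 gave 0.782. The Ttr call was lost with title range as a block (limma adjusted p = 0.141), within titles 1 to 30 (0.150), with neuronal and oligodendrocyte gene content as a covariate (0.0527), and without 4 arrays that an earlier analysis of these data found apart from the rest, E10 del.v2 replicate 2 and replicates 1 to 3 of E10 del (0.0542). Leaving out single arrays ended it in 19 of 36 fits, with limma adjusted p from 0.0168 to 0.104, among them each of the 5 D842V arrays.

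Against EGFRvIII, a truncated and constantly active EGF receptor, 0 of 8 genes were called by limma, against a background of 8.90% of all genes (3.55% higher in the mutants, 5.35% lower). At an unadjusted limma p under 0.05, which 27.5% of all genes met, 2 of the 8 differed: Folr1 by 0.96 ± 0.40 (adjusted p = 0.113) and Aqp1 by -1.15 ± 0.50 (adjusted p = 0.130). The Ttr difference was 1.65 ± 0.85 (limma adjusted p = 0.198), Kl 0.80 ± 0.42 (0.203), Kcnj13 0.92 ± 0.54 (0.267) and Foxj1 0.20 ± 0.17 (0.457). EGFRvIII arrays all lie in the upper title range. Within titles 41 to 64 the difference of Ttr was 0.16 and that of Kl 0.06. Clic6, at 0.83 ± 0.64 in all arrays, turned to -0.37 within titles 41 to 64 and to -0.28 with title range as a block, and Otx2, at 0.57 ± 0.41, turned to -0.06 within titles 41 to 64. Without EGFRvIII replicate 1, Aqp1 was called (-1.43, limma adjusted p = 0.0458).

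In the wider lists, 2 of 28 choroid plexus genes were called against EGFRvIII, in opposite directions, while 8.90% of all genes were called. Steap1 was lower in the mutants, at 3.80 against 5.37 (-1.56 ± 0.45, limma adjusted p = 0.0253). Vat1l was higher, at 8.06 against 6.94 (1.12 ± 0.34, limma adjusted p = 0.0337). The median over the 28 genes was -0.01 against -0.02 over all genes. Of the 20 cilia genes 0 were called by limma, and 7 had an unadjusted p under 0.05, against that 27.5% of all genes, with a median difference of 0.38. EGFRvIII arrays all lie in the upper title range, where cilia genes were lower in the genotypes that hold both ranges, as given below. The part of title range in the difference of 0.38 was not tested.

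The title ranges could be compared in V544ins and E10 del.v2, the 2 genotypes that hold both. Over their 18 arrays limma called 0 of 8 genes and 0% of all genes, although 2737 genes, among them Clic6, had an unadjusted p under 0.05. Clic6 differed by -1.81 ± 0.73 (upper minus lower range, limma adjusted p = 0.165). Ttr differed by -0.75 ± 0.98 (limma adjusted p = 0.655), but the sign differed between the genotypes. In V544ins the 3 lower-range arrays ran from 6.23 to 9.23 and the 6 upper-range arrays from 2.44 to 7.51. In E10 del.v2 the lower range gave 6.54 to 8.39 and the upper 7.31 to 12.82. The interaction for Ttr was -5.02 ± 1.58 (limma adjusted p = 0.0903), in a test that called 0.0339% of all genes, 0.00847% with a positive and 0.0254% with a negative interaction, and none of the 8 genes of the set. Neuronal genes moved with the ranges: the median of 13 was -2.09 for upper minus lower range, with 9 at an unadjusted limma p under 0.05, and -3.25 for the interaction, with 10, while the medians over all genes were 0.05 and 0.11. None of the 13 was called by limma, and their part in the Ttr values was not tested. The 20 cilia genes had a median of -0.51 for upper minus lower range, with 7 at an unadjusted limma p under 0.05. For the interaction their median was -0.78, with 4, and none of the 20 was called by limma in either test.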

How the data were processed

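Total RNA from mouse brain was extracted with Trizol, and 100 ng was labelled with biotin for Affymetrix 3' IVT arrays, per the labels. The authors deposited log2 probe set signals made with RMA, per the submitters' processing notes; its version is not given in the sources used here. RMA normalises whole arrays, so a level is relative to all probe sets of an array.

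The table of 45141 probe sets (28898 with 1 gene symbol, 551 with several and 15692 unnamed) was used as deposited. A gene was kept if at least 3 arrays exceeded the median of the whole table (4.79). The 8 group means were estimated without covariates by lmFit and eBayes (limma 3.58.1, R 4.3.3), and p-values were adjusted over 11809 genes by Benjamini-Hochberg; an adjusted p under 0.05 was called. The fit was tested on simulated data. The number of arrays limits the precision. Named beside the 9 genes were the called genes of the wider lists and the 10 genes most like Ttr, Kl and Folr1 or Foxj1; the cilia and other tissue genes given singly were chosen after their values were seen. The genes, lists and tests were chosen with earlier results of these data known.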

Additional observations from a re-analysis of the deposited data

Results flagged for a closer look

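In 15 of 48 gene and genotype groups with 5 to 9 arrays, 1 array stood apart from the others by Dixon's criterion at the 95% level, which chance alone meets in about 1 of 20 groups. The groups share arrays and the genes move together, so the 15 are not independent. They came from 6 arrays.

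E10 del.v2 replicate 4 stood above the other 8 arrays of its genotype for 5 genes: Kl at 6.73 (next 3.74), Folr1 at 6.22 (next 3.54), Kcnj13 at 7.90 (next 3.46), Clic6 at 8.27 (next 5.61) and Aqp1 at 5.48 (next 3.84). C450 ins replicate 3 stood above the other 4 for Kl at 6.99, Kcnj13 at 7.84 and Clic6 at 8.50. E10 del replicate 2 stood above the other 4 for Folr1 at 7.42, Kcnj13 at 9.01 and Otx2 at 6.93. D842V replicate 3 stood below the other 4 for Ttr at 10.52 (next 12.49) and Kcnj13 at 3.55 (next 6.26). V544ins replicate 1 was high for Kcnj13 at 5.34, and V544ins replicate 4 for Folr1 at 4.46.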

How the results depend on the processing

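No paired analysis was possible because the labels give no replicate numbers that groups share. Titles 41 to 64 hold no D842V array, so that contrast has no value there.

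Against EGFRvIII 1051 genes were called. With neuronal and oligodendrocyte gene content as a covariate 360 were, with title range as a block 310 and in titles 41 to 64 alone 80. Leaving out single arrays gave 185 to 2239 calls, the most without EGFRvIII replicate 1 and the fewest without EGFRvIII replicate 5. Of the 8 genes 0 to 1 were then called. Clic6 reversed to -0.28 with the block and -0.37 in titles 41 to 64 alone, and Otx2 to -0.06 there. For D842V, 69 calls became 106 with no filter, 4672 with array weights, 500 with the covariate, 391 in titles 1 to 30 alone, 207 without the 4 arrays that stand apart and 10 to 133 leaving out single arrays. Of the 8 genes, 2 (Ttr and Foxj1) were called with array weights, 0 with the block, 3 without the 4 arrays and 0 to 3 leaving out single arrays. For the F test among mutants, 68 calls became 10855 with array weights, 171 with the covariate, 14 with the block, 223 in titles 1 to 30 alone, 36 without the 4 arrays and 4 to 141 leaving out single arrays. Of the 8 genes, 8, Foxj1 included, were called with array weights, 0 with the covariate, the block, titles 1 to 30 alone or without the 4 arrays, and 0 to 1 leaving out single arrays. Between title ranges, 0 calls became 3 with no filter, 3577 with array weights, 2933 without the array of the 4 that was in the comparison (E10 del.v2 replicate 2) and 0 to 2933 leaving out single arrays. Several differences between title ranges changed sign, among them that of Ttr, which was -0.75 ± 0.98 in the main fit. With array weights Ttr read 0.32, Kcnj13 0.23, Otx2 0.23, Aqp1 -0.12 and Foxj1 0.20, and with the covariate Ttr read 1.05, Kl 0.55, Kcnj13 0.78 and Otx2 0.33. Leaving out single arrays gave -0.45 to 0.37 for Kcnj13, -0.39 to 0.01 for Otx2, -0.08 to 0.19 for Aqp1 and -0.18 to 0.00 for Foxj1. The cause was not tested. With a mark of 2 above the median in place of 1, the arrays over it numbered 8 rather than 15 for Ttr, 6 rather than 13 for Otx2, 6 rather than 13 for Aqp1 and 0 rather than 1 for Foxj1. Centring the arrays or quantile normalisation changed no call of the 8 genes in any comparison. Signals near the floor of the table limit what can be said of Kl, Folr1 and Foxj1 in most arrays.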
